A study of Homo sapiens with 8 samples.

Results

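MKI67, CENPF, CDK2 and E2F3 are genes of cell proliferation, and the N6-methyladenosine (m6A) features listed under their names were examined in HL-60 cells treated with decitabine and in HL-60 cells given DMSO. Every row whose gene name was one of these 4 symbols was taken, which gave 17 of the 4626 features and 4 of the 3114 gene names in the authors' deposited table. HL-60 is an established human promyelocytic leukaemia cell line of 1 genotype, labelled WT, in both arms. Decitabine is a deoxycytidine analogue that traps DNA methyltransferases on DNA, and DMSO is its vehicle. Per the labels' protocols, the decitabine arm was dosed to 100 nM on 3 occasions, at the start, at 24 hours and at 48 hours, the DMSO arm was given DMSO, and RNA was taken from both at 72 hours. Each arm was grown in duplicate and gave 2 m6A immunoprecipitates and 2 input libraries, 8 libraries in 4 groups.

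m6A is a methyl mark that METTL3 and its partners add to adenosines of mRNA, often near stop codons and inside long internal exons, and reader proteins that bind it affect mRNA decay, splicing and translation. MeRIP-seq measures it by sequencing RNA fragments pulled down with an antibody against m6A beside the input RNA. MKI67 encodes Ki-67, which coats mitotic chromosomes and is made in cycling cells, and CENPF encodes a large coiled-coil protein of the outer kinetochore that accumulates in G2 and mitosis. CDK2 is the kinase partner of cyclins E and A at the start of and during S phase, and E2F3 is a transcription factor that, once released from RB1, switches on genes for DNA replication. MKI67 and CENPF each have very long coding exons, and the longest exon of MKI67 encodes the tandem Ki-67 repeats.

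Each feature in the authors' deposited table is a window with 1 log ratio and 1 p-value over the libraries of both arms, and each of the 17 features of the 4 genes covers 50 nt. No value per library was used, so no ratio carries an error or a replicate spread, the depth behind it is unknown, and no test over cultures was run here. The table lists only features that had passed a limit, with absolute natural log ratios of at least 0.501 and p-values up to 0.00455, and the number of features tested is unknown. The orientation of the ratio is not stated. The text therefore gives signs and the fold of the larger over the smaller arm, and reads no sign as a gain or a loss under decitabine. How the ratio was corrected for input is also unknown, so a difference in m6A per transcript and a difference in RNA level cannot be told apart. The myeloid identity of the cells could not be checked against markers, because the table holds differences and no levels.

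Most listed features of the 4 genes had a negative ratio. Of the 17 features, 14 were negative and 3 were positive, in a table where 43.7% of all listed features were negative and 56.3% positive. The median natural log ratio was -1.19 over the 17 features and 0.78 over all 4626 features in the authors' deposited table. The negative features were of ordinary size for the table, with a median of 3.58-fold against 3.95-fold over all negative features. The 4 genes differed from the whole table in how many of their ratios were multiples of 0.5. Low whole-number totals in the smaller arm could give such ratios, called stepped here, but no counts were used and this was not tested. They made up 1415 of all 4626 features and 1 of the 17, the CDK2 feature. Without stepped ratios, 13 of 16 features of the 4 genes (81.2%) were negative, against 54.7% of the remaining 3211 features of the table. The median natural log ratio was then negative for both, at -1.16 for the 4 genes and -0.62 for the table. The 17 features share 4 transcripts and are not independent.

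**Figure D1:**
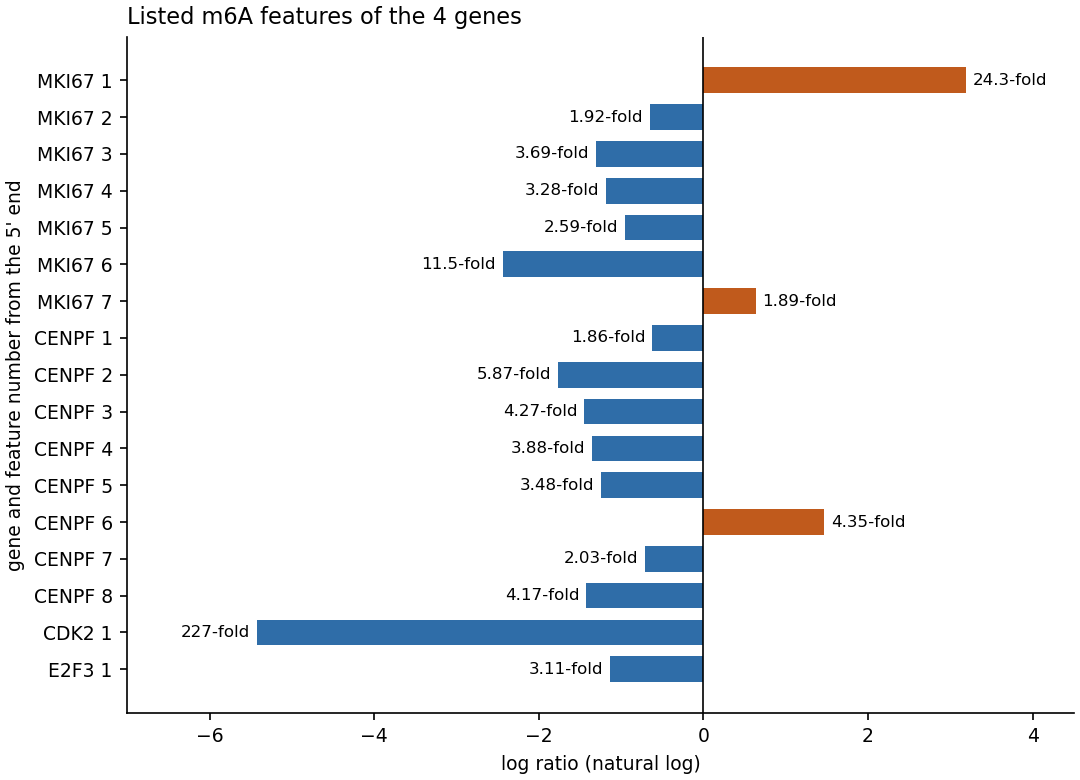
Natural log ratio of each listed m6A feature of MKI67, CENPF, CDK2 and E2F3, numbered from the 5′ end of the gene, from the authors' deposited table. Each bar is 1 feature with its fold beside it (larger over smaller arm, no error available), and 14 of the 17 bars point to the negative side, with CDK2 at 227-fold as the longest.

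In MKI67, a run of 5 negative features lay between 2 positive ones. The authors' deposited table placed all 7 on the minus strand of chromosome 10 under ENSG00000148773.14, and positions are given on hg38 with both ends included. Read from the 5′ end, the first was a positive 24.3-fold feature at 128111934 to 128111983 (p = 0.0021 in the authors' deposited table), 14440 nt into a gene span of 29765 nt. This ratio is also a simple fraction, at 24.3333, although as no multiple of 0.5 it was not counted as stepped. The next feature lay 3100 nt further on, at 128108784 to 128108833, and opened the negative run with a 1.92-fold ratio (p = 0.0018) in the authors' deposited table.

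The remaining negative features of MKI67 were larger. The authors' deposited table listed 3.69-fold at 128107535 to 128107584 (p = 0.00051) and 3.28-fold at 128105186 to 128105235 (p = 0.0025). Next, the authors' deposited table listed 2.59-fold at 128104386 to 128104435 (p = 0.00023) and 11.5-fold at 128104036 to 128104085 (p = 3.5e-05). The last of these had the smallest p-value of the gene, rank 706 of the table, and was larger than 78.6% of all negative features. It lay only 300 nt from its 2.59-fold neighbour, and these neighbours of the same sign differed widely in fold. The 5 negative features fell within 4798 nt, 16.1% of the gene span, and covered 250 nt of it. The windows between them are not listed, and whether they were tested is unknown.

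The seventh MKI67 feature returned to a positive ratio near the 3′ end. It was 1.89-fold at 128098758 to 128098807 (p = 0.0013) in the authors' deposited table, 5228 nt past the last negative one and 2099 nt from the 3′ end of the span. It was among the smallest positive ratios, larger than 4.61% of them. The 2 positive features of MKI67 therefore stood at opposite ends of the listed stretch. Exon and UTR boundaries were not annotated here, so no feature is assigned to a particular exon, and distances along the gene include introns.

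CENPF carried 8 features, 7 of them negative. In the authors' deposited table they were on the plus strand of chromosome 1 under ENSG00000117724.13 and spanned 8516 nt, 13.9% of a gene span of 61377 nt. That span includes introns, and the share of the mRNA was not measured. The first 5 from the 5′ end were all negative. The authors' deposited table gave 1.86-fold at 214640238 to 214640287 (p = 0.0038) for the first. Its neighbour, also from the authors' deposited table, had a 5.87-fold ratio at 214642034 to 214642083 (p = 0.00028), and had the smallest p-value and the largest ratio of the gene. The following 3 were 4.27-fold at 214642334 to 214642383 (p = 0.0029), 3.88-fold at 214643082 to 214643131 (p = 0.00075) and 3.48-fold at 214645012 to 214645061 (p = 0.00094) in the authors' deposited table. Over all 7 negative features, CENPF ran from 1.86-fold to 5.87-fold with a median of 3.88-fold, and the 5 of MKI67 ran from 1.92-fold to 11.5-fold with a median of 3.28-fold.

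The single positive feature of CENPF sat among negative ones. It was 4.35-fold at 214647057 to 214647106 (p = 0.0033) in the authors' deposited table, 1995 nt past the nearest upstream negative feature. Only 250 nt further on came a negative 2.03-fold feature (p = 0.0044 in the authors' deposited table). That feature was written as 2 blocks, 44 nt from 214647357 to 214647400 and 6 nt from 214647967 to 214647972, and the 566 nt between them were skipped, as a window laid over spliced RNA would be. Its p-value ranked 4575 of 4626, so it was close to the limit of the list. The last feature, 731 nt on, was a negative 4.17-fold one at 214648704 to 214648753 (p = 0.0015) in the authors' deposited table. From there to the 3′ end of CENPF, 15818 nt of the span, introns included, held no listed feature.

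**Figure D2:**
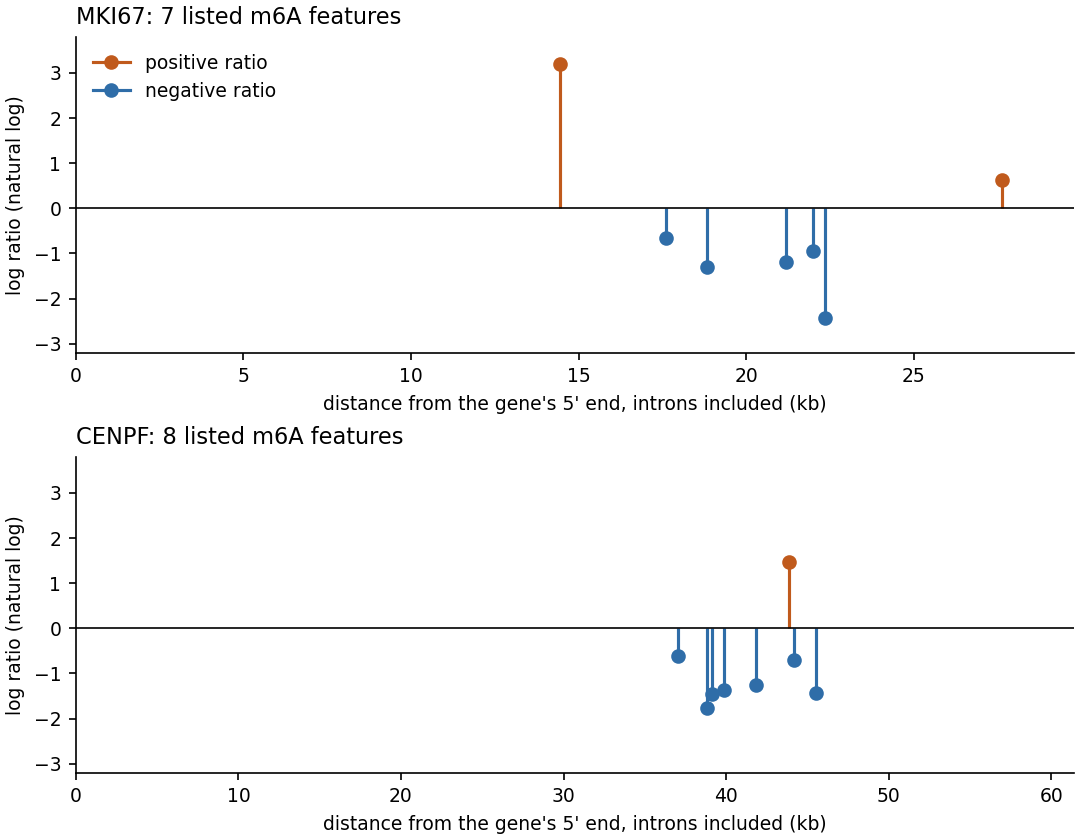
Listed m6A features along MKI67 (top) and CENPF (bottom), with distance from the 5′ end of the RefSeq gene span in kb on the x axis and the natural log ratio from the authors' deposited table on the y axis. Each stem is 1 feature of 50 nt. Both genes show 5 negative features in a row, in MKI67 between 2 positive features and in CENPF upstream of its only positive one.

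CDK2 and E2F3 had 1 feature each, both negative and both towards the 3′ end of the gene. CDK2 had a 227-fold feature at 55971743 to 55971792 on the plus strand of chromosome 12 (ENSG00000123374.11, p = 4.0e-05) in the authors' deposited table, 997 nt from the 3′ end of a span of 5960 nt. It was larger than 96.7% of all negative features, but it was a stepped ratio, and the counts behind it are unknown. E2F3 had a 3.11-fold feature at 20491220 to 20491269 on the plus strand of chromosome 6 (ENSG00000112242.15, p = 0.00023) in the authors' deposited table. That feature lay 2445 nt from the 3′ end of a span of 91836 nt, at 97.3% of its length. By p-value the CDK2 feature ranked 729 and the E2F3 feature 1328 of 4626, against 706 for the leading feature of MKI67 and 1419 for that of CENPF. No other gene name of the table had a feature inside the spans of the 4 genes, and 0 of the 17 features overlapped the span of another RefSeq gene.

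MKI67 and CENPF were among the genes with the most listed features. Of the 3114 gene names in the authors' deposited table, 2167 had 1 feature and 12 had at least as many as MKI67. One of these, P2RY8, lies in a pseudoautosomal region and was listed on both sex chromosomes. The signs within these genes varied. PLEC, which encodes the cytoskeletal linker plectin and was named after its values were seen, had 7 negative features and 0 positive ones in the authors' deposited table. AHNAK, which encodes a giant scaffold protein, had 9 negative and 4 positive features in the authors' deposited table, and RREB1, a zinc finger transcription factor, had 7 and 1, the same as CENPF. GNA12, a G protein alpha subunit, had 5 negative and 2 positive features in the authors' deposited table, the same as MKI67. FAT1, an atypical cadherin, had 4 of each sign, NIN, the centrosomal protein ninein, had 3 negative and 5 positive, and the clone-named AC106886.6 had 3 negative and 4 positive. KMT2D, with 2 negative and 5 positive features, and ZNF292, with 5 and 2, were also named after their values were seen. P2RY8 had 6 negative and 2 positive features over both sex chromosomes, so the same site may be listed more than once in its count. An unbroken run of at least 5 negative features was found in 10 of the 51 genes with 5 or more features. MKI67 and CENPF were 2 of the 10, and 2 genes also listed on chromosome Y were left out. A gene with 5 features had such a run only if all were negative, and genes with more features had more room for one. AHNAK, PLEC and GNA12, which had at least as many features as MKI67, also held such a run. MKI67 and CENPF held 0 stepped ratios, as did PLEC and P2RY8, and the other 8 of the 12 genes held between 1 and 4.

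**Figure D3:**
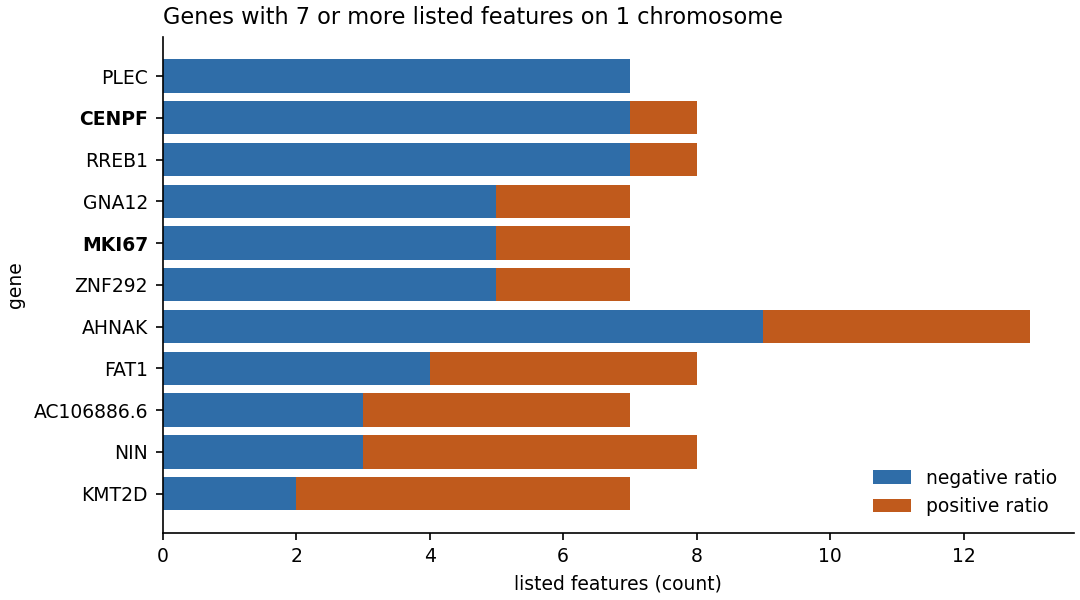
Number of negative and positive m6A features (x axis, count) in each gene with 7 or more listed features on 1 chromosome, from the authors' deposited table, ordered by the negative share. The range runs from 7 of 7 to 2 of 7 negative. CENPF, with 7 of 8 negative, stands in its upper part, the same as RREB1. MKI67, with 5 of 7 negative, stands in the middle, the same as GNA12 and ZNF292.

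Other genes of the cell cycle were of both signs. Over 6 lists of related genes, 39 genes besides the 4 were in the table, of 216 symbols, and the feature with the smallest p-value, called the leading feature, stood for each gene. Of the 39, 13 were negative (33.3%) and 26 positive, with a median natural log ratio of 1.49, in a table where 41.1% of all gene names had a negative leading feature and the median was 0.93. Without stepped ratios 26 of the genes remained, 14 negative (53.8%) and 12 positive, and 54.7% of all gene names were then negative. Among the 26 genes named from the lists, the leading features of NDE1, CENPO, NCAPG and SMC4 also lay inside the span of another RefSeq gene, and whether strand was used in counting is unknown, so their reads may belong to either gene.

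Kinetochore and centromere genes were mostly positive, on the other side from CENPF. Of 8 listed genes besides CENPF, 1 was negative (12.5%) and 7 were positive, in a table where 41.1% of all gene names were negative. Without stepped ratios 1 of 5 was negative (20.0%), beside 54.7% of all gene names. Among the positive genes, the leading features of NDE1, CENPL, CENPO, CENPP and KNL1 were stepped. NDE1, a dynein regulator that binds CENPF, had a positive 138.5-fold stepped ratio (p = 9.1e-09) per the authors' deposited table. The inner kinetochore subunits CENPL and CENPO were led by stepped ratios of a positive 146-fold and 62.0-fold per the authors' deposited table, and CENPC, which links centromeric chromatin to the outer kinetochore, by a positive 2.74-fold feature. CENPL held further positive features of 106-fold and 2.30-fold, and CENPO one of 4.76-fold, per the authors' deposited table. CENPB, which binds a motif of centromeric satellite DNA, was led by a negative 3.91-fold feature (p = 4.7e-07) and also held a positive 3.13-fold one per the authors' deposited table.

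The factors that act with E2F3 were of both signs. Of 6 listed E2F, RB and DREAM genes besides E2F3, 3 were negative and 3 positive, and 3 of 4 were negative without stepped ratios. FOXM1, a transcription factor of G2 and M phase genes, had negative features of 4.65-fold (p = 1.3e-06) and 1.72-fold per the authors' deposited table. TFDP2, a dimer partner of E2F proteins, was at a negative 3.49-fold, and E2F2, a close relative of E2F3, at a positive 4.42-fold per the authors' deposited table. LIN9, a subunit of the DREAM and MuvB complexes, and RBL2, a pocket protein related to RB1, had stepped ratios of a positive 402-fold and 237-fold per the authors' deposited table.

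The cyclin and CDK list held 5 genes besides CDK2, 2 negative and 3 positive, and 2 of 3 were negative without stepped ratios. FZR1, an activator of the anaphase-promoting complex, was at a negative 2.40-fold and FBXW7, the ubiquitin ligase receptor for cyclin E, at a negative 1.73-fold per the authors' deposited table. CDC25A, the phosphatase that activates CDK2, was at a positive 2.26-fold per the authors' deposited table. The D-type cyclin CCND1 (76.0-fold) and the CDK4 and CDK6 inhibitor CDKN2C (197-fold) had positive stepped ratios per the authors' deposited table. Of the list around Ki-67 and the chromosome periphery, 1 gene besides MKI67 was listed, CDCA2, which like Ki-67 recruits protein phosphatase 1 to chromosomes, at a positive 172-fold stepped ratio per the authors' deposited table.

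Mitotic and replication genes were also of both signs. Of 9 listed genes of mitotic kinases, spindle and chromosome structure, 4 were negative and 5 positive, and 5 of 7 were negative without stepped ratios. The condensin subunits NCAPG, NCAPD2 and SMC4 were led by positive ratios of 4.82-fold, 137-fold and 47.0-fold, the last 2 stepped, per the authors' deposited table. NCAPD2 also held a negative 9.69-fold feature per the authors' deposited table. CIT, a kinase of cytokinesis, had a positive 210-fold stepped ratio, and NUMA1, which organises spindle poles, was led by a negative 2.13-fold feature beside positive ones of 1.97-fold and 6.81-fold per the authors' deposited table.

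Of 10 listed DNA replication genes, 3 were negative and 7 positive, and 3 of 7 were negative without stepped ratios. CLSPN (266-fold), an adaptor of the replication checkpoint, POLE (36.5-fold), the leading-strand polymerase, and RIF1 (105-fold), a regulator of replication timing, were led by positive stepped ratios per the authors' deposited table. RIF1 also held features of a positive 3.06-fold and a negative 2.25-fold per the authors' deposited table. The flap endonuclease FEN1 had 2 positive features of 2.83-fold and 2.55-fold, and DBF4, the activating subunit of the CDC7 kinase, a negative 2.07-fold one per the authors' deposited table.

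**Figure D4:**
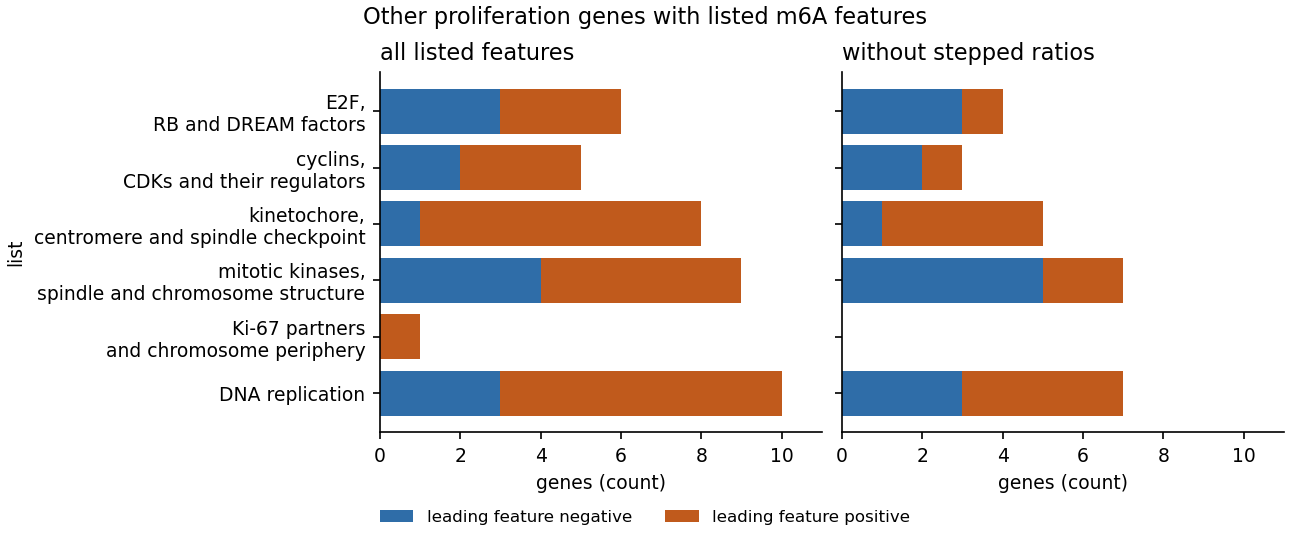
Number of genes (x axis, count) with a negative or positive leading m6A feature in 6 lists of proliferation genes, leaving out MKI67, CENPF, CDK2 and E2F3, from the authors' deposited table. The left panel counts all listed features and the right panel leaves out stepped ratios. In the kinetochore list 7 of 8 genes are positive on the left and 4 of 5 on the right.

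The promoters of MKI67, CENPF and E2F3 were read from RefSeq (GRCh38.p14) to show a sequence that these 3 genes share outside the m6A measurement, and CDK2 was not analysed here. The cell cycle genes homology region (CHR), TTTGAA, is an element through which DREAM and MuvB complexes control genes of G2 and mitosis, and LIN54 is the subunit that binds it. On either strand of the window from 250 bases before to 50 after a start, TTTGAA was found in 15.2% of 35116 promoters. It was present in the windows of MKI67 and CENPF and in 1 of the 2 windows of E2F3. The lines below give 30 bases around 1 match in each gene, 5′ to 3′ on the gene's strand, with the match in capitals.
MKI67: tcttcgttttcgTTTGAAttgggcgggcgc
CENPF: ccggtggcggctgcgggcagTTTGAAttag
E2F3: atgcaaatatggTTTGAAaagccggcggga
The MKI67 window is chr10:128126435-128126464 on the minus strand, with the match starting 29 bases before the annotated start, and a second TTTGAA starts 47 bases before it. The MKI67 match shares its last base with ATTGG, the reverse complement of the CCAAT box, which was found in 34.6% of promoters. The CCAAT box is also present in the CENPF promoter and in the E2F3 promoter that holds TTTGAA. The CENPF window is chr1:214603215-214603244 on the plus strand, with the match starting 40 bases past the annotated start. The E2F3 window is chr6:20401802-20401831 on the plus strand, with the match starting 65 bases before the start. The same E2F3 promoter holds GCGGGAAA, the reverse complement of the E2F motif TTTCCCGC, which 1.6% of promoters hold on either strand, and MKI67 and CENPF hold neither it nor the related TTTGGCGC and TTTCGCGC. These matches describe the reference sequence, and the m6A ratios measure nothing at promoters.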

How the data were processed

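m6A was measured by MeRIP-seq in 8 libraries, grouped by their titles. The submitters' processing notes name STAR 2.7.3a and the build hg38. The method of scoring, scaling and input correction, and the handling of replicates, were not given in the sources used here. Per feature, the authors' deposited table gives a log ratio and a p-value per feature, with no value per library. The base of the deposited log ratio is not stated. A natural log was assumed, since it turned 1415 ratios into multiples of 0.5 (relative tolerance 1e-08) and base 2 turned 0. Nothing marks the deposited p-value as adjusted.

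Rows were matched by gene name. Gene spans and promoters came from RefSeq tables of GRCh38.p14, a patch release that keeps the chromosome coordinates of hg38. Values were copied, counted and placed along each gene, and no significance test was run, since the planned count fits need library values. The genes and lists were chosen with earlier results of these data known. All rows of the 4 genes are named, with up to 5 other genes per list by p-value and up to 8 genes with at least as many features as MKI67. PLEC, KMT2D and ZNF292 were named beyond these limits, as were the further genes given at the end. The functions were tested on simulated data. Python 3.11.15, pandas 2.3.3, numpy 2.4.6 and matplotlib 3.10.9 were used.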

Additional observations from a re-analysis of the deposited data

How the results depend on the processing

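Among features with a p-value of 0.001 or less, 8 negative and 0 positive features of the 4 genes remained, against 14 and 3 in the whole list. At that limit 39.4% of all 2431 listed features were negative, and 55.2% of the 1482 that were not stepped. The counts stayed within 1.5 times under a 2-fold limit for negative (12) and positive (2) features, and without stepped ratios (13 and 3). Counting features of 1 sign within 200 nt once could change nothing, because the nearest features of the 4 genes were 250 nt apart. When the largest ratio in place of the smallest p-value chose the leading feature, MKI67 turned from a negative 11.5-fold to a positive 24.3-fold feature, and CENPF kept its own, while CDK2 and E2F3 have 1 feature each and could not change. Over the 6 lists together, 26 genes had a positive leading feature, and 12 did without stepped ratios, which leave fewer genes to count. Read as log2, the folds of the 17 features would run from 1.54 to 43.0 in place of 1.86 to 227. Matching by Ensembl identifier gave the same number of features for each of the 4 genes. No paired analysis was possible because the table holds no value per library, and for the same reason no replicate was left out and no library normalisation or low-count filter was compared.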

Other observations

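Further genes of the lists, chosen here after their values were seen, had features of note in the authors' deposited table. LIN54, the subunit that binds TTTGAA, held a negative 3.94-fold and a positive 1.90-fold feature. KNL1, a scaffold of the outer kinetochore, had a positive 11-fold stepped ratio. CDT1, a replication licensing factor, had a negative 60.5-fold stepped ratio. MASTL, a mitotic kinase, was led by a positive 4.36-fold feature and held a negative 368-fold stepped ratio. HMMR and GTSE1, both of the spindle, were at a negative 3.24-fold and 6.94-fold.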
